A study of Mus musculus with 2 samples.

Results

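Mir191 and Mir425 are 2 microRNA genes that lie side by side on mouse chromosome 9. They were picked by their GENCODE M21 gene names from the 2202 microRNA genes listed in the deposited tables, and both were found in both libraries. The rule uses names and no counts, but it was set with earlier results of these data known. The libraries were made from small RNA of the left cerebral cortex of 2 female mice of the hybrid strain B6CASTF1/J, aged 36 days, with 1 library per mouse. Both mice belong to a single group, called mouse 1 (replicate 1) and mouse 2 (replicate 2) here. The labels name no allele or agent beyond the strain, and no second condition is available for a comparison. The tables hold whole-number read counts per gene in 3 columns, read as unstranded, sense (the gene's own strand) and antisense (the opposite strand). Levels are given in CPM, for which each gene's sense reads were divided by the sense total of the library.

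A microRNA is cut from a hairpin precursor that carries a mature strand on each of its arms. The mature strand guides Argonaute proteins to messenger RNAs that match its seed, which is bases 2 to 8 counted from the 5′ end. Hairpins that lie close together on a strand are often cut from a shared primary transcript. In mice, miR-191 is known from red cell precursors, where its loss accompanies the last steps of maturation, and in cultured hippocampal neurons of rodents it has been linked to the restructuring of dendritic spines. In humans, miR-425 represses the gene for atrial natriuretic peptide.

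Both genes had 2 annotated mature strands in RefSeq (build GRCm38.p6), and these are shown because the counts are per gene and cannot tell the arms apart. Seeds are in capitals.
mmu-miR-191-5p: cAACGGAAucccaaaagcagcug
mmu-miR-191-3p: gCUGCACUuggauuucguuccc
mmu-miR-425-5p: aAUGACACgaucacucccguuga
mmu-miR-425-3p: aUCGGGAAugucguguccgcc
All 4 seeds differ, so the genes do not share a seed family. Among 1738 mature microRNAs in the RefSeq table, which carry 1398 distinct seeds, the seeds of both miR-191 arms and of miR-425-3p occur once. The seed of miR-425-5p occurs in 1 other entry, the 3′ arm of Mir489, shown here for comparison.
mmu-miR-489-3p: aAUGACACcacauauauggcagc
Mir489 lies on chromosome 6 within Calcr, the calcitonin receptor gene, and had 0 sense counts in both mice. A count of 0 allows up to 3 counts, so that a level of up to 1.55 CPM in mouse 1 or 1.61 CPM in mouse 2 would go unseen. Mir425 was therefore the only gene with this seed on an annotated arm that had counts, although its counts do not show which arm was read.

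The hairpins are shown with the mature strands in capitals, to show how much of each gene the mature strands take up.
Mir191: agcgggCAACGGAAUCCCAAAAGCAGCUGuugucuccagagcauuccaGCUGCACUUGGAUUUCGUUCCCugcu
Mir425: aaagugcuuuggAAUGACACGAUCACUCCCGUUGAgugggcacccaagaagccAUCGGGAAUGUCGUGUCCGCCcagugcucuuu
The Mir191 hairpin is 74 bases long and the Mir425 hairpin 85. Their GC contents were nearly equal, at 54.1% each after rounding. RNAfold gave a predicted minimum free energy of -35.0 kcal/mol for Mir191 and -31.7 kcal/mol for Mir425, with 28 base pairs in each. The longest run of bases that both hairpins share is 5. Neither hairpin has a run of 20 bases in common with another annotated microRNA hairpin, which matters because 50.9% of the mapped reads in mouse 1 and 51.2% in mouse 2 fitted several places and entered no gene count.

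On the mm10 assembly, Mir191 (ENSMUSG00000105497.1) lies on the plus strand at chr9:108568319-108568392, and Mir425 (ENSMUSG00000065579.1) lies downstream on the same strand at chr9:108568777-108568861. Their starts are 458 bases apart, with 384 bases between the hairpins. The pair is commonly placed in Dalrd3, a gene whose protein takes part in the methylation of transfer RNAs, and the annotations differ on this. The RefSeq gene Dalrd3 (GRCm38.p6) runs from 108567484 to 108572773 and encloses both hairpins. In GENCODE M21, the release used for the counts, Dalrd3 begins at 108569886, which is 1025 bases beyond the end of Mir425. There, both hairpins lie in the long non-coding RNA gene 4833445I07Rik (108567533 to 108569174, plus strand). Both fall inside the single exon of its transcript 4833445I07Rik-201. In the spliced transcript 4833445I07Rik-202, Mir191 lies in the intron, and Mir425 begins 3 bases past the transcript's last exon. Another microRNA gene, Gm24083 (108568295 to 108568414), overlaps the whole of Mir191 on the minus strand. Apart from these, the nearest annotated microRNA genes on the chromosome are Gm47303, 465 kb before the pair, and Gm26298, 84.7 kb after it, each with 0 sense counts in both mice.

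**Figure D1:**
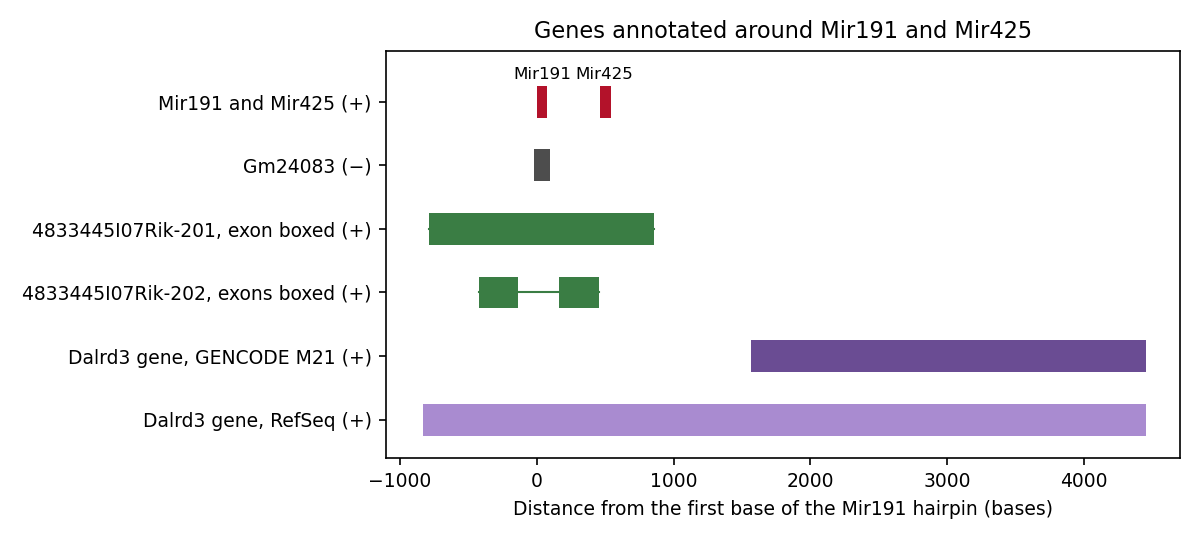
Genes annotated around Mir191 and Mir425, by distance in bases from the first base of the Mir191 hairpin, with the strand in brackets. Both hairpins (red) lie in the non-coding gene 4833445I07Rik (green) and in the RefSeq gene Dalrd3 (light purple). The GENCODE M21 gene Dalrd3 (dark purple) begins 1025 bases beyond the end of Mir425 and 1494 bases beyond the end of Mir191. Gm24083 (grey) covers Mir191 on the opposite strand.

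Mir191 had 14538 sense counts in mouse 1 and 18059 in mouse 2. These were 7532 CPM in mouse 1 (95% Clopper-Pearson interval 7410 to 7655) and 9689 CPM in mouse 2 (9549 to 9831). Its mean level was 8610 ± 1525 CPM (SD, n = 2). Mir425 had 1437 sense counts in mouse 1 and 1850 in mouse 2. These were 744 CPM in mouse 1 (706 to 784) and 993 CPM in mouse 2 (948 to 1039), with a mean of 869 ± 175 CPM (SD, n = 2). Both genes were lower in mouse 1, and the intervals of the mice did not overlap for either gene. Differences beyond counting error were common. Of 324 genes whose mean reached 10 CPM, 242 (74.7%) passed an exact binomial test between the mice at adjusted p under 0.05. Of the 324, 123 (38.0%) passed and were lower in mouse 1. The intervals and floors cover counting error only, since no molecular identifiers are named and PCR copies count as reads.

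By level, Mir191 ranked 27th of 2202 genes in mouse 1 and 22nd in mouse 2, and Mir425 ranked 109th in mouse 1 and 104th in mouse 2. On chromosome 9, Mir191 was second in both mice, while Mir425 was 7th in mouse 1 and 6th in mouse 2. Of 324 genes whose mean reached 10 CPM, 71 lay in a non-coding host gene but in no protein-coding one by GENCODE M21, with a median of 573 CPM. Of these 71, 7 stood above Mir191 and 28 above Mir425. Another 158 lay in a protein-coding host, with a median of 173 CPM, and 12 of them stood above Mir191 and 43 above Mir425. The other 95 had no host, with a median of 317 CPM, and 5 of them stood above Mir191 and 33 above Mir425. Together, the pair held 0.828% of sense counts in mouse 1 and 1.07% in mouse 2 (mean 0.948% ± 0.170).

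The genes nearest to Mir191 in mean level were Mir411, Mir324, Mir23a, Mir149 and Mir652, with means between 8170 and 9131 CPM. Mir411, a member of the imprinted Dlk1-Dio3 cluster, had 5992 CPM in mouse 1 and 10811 CPM in mouse 2. It was lower in mouse 1, as Mir191 was, whereas the other 4 were higher in mouse 1. The genes nearest to Mir425 were Mir543, Mir455, Mir125b-1, Mir532 and Mir326, with means between 820 and 867 CPM. Mir543, also of the Dlk1-Dio3 cluster, had 722 CPM in mouse 1 and 1012 CPM in mouse 2. Within each set of 6, the means lay closer together than the SD of Mir191 or of Mir425, so the order of these neighbours does not hold up against the spread between the mice. Mir411, Mir23a and Mir125b-1 share runs of 20 bases with other hairpins, so their own levels may leave out reads.

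**Figure D2:**
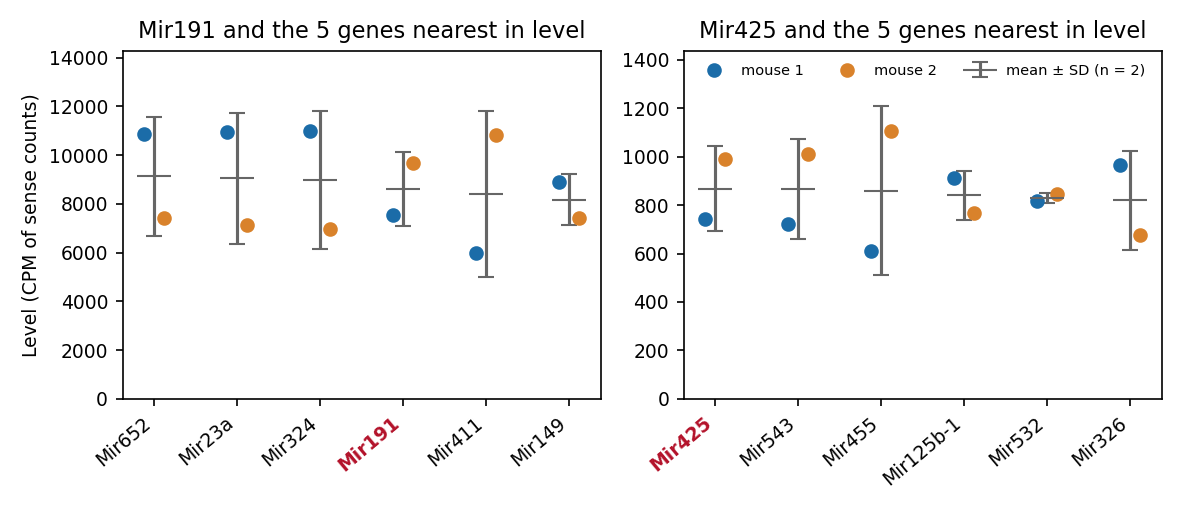
Level in CPM of Mir191 (left, red label) and Mir425 (right, red label) beside the 5 genes nearest to each in mean level. Points are mouse 1 (blue) and mouse 2 (orange), and bars are the mean ± SD of both mice. Mir191 stood at 7532 and 9689 CPM and Mir425 at 744 and 993 CPM, each lower in mouse 1.

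All counted reads of the pair came from the plus strand. The antisense count was 0 for Mir191 and for Mir425 in both mice, against 14538 and 18059 sense counts for Mir191. Gm24083, the gene on the other side of Mir191, had 0 sense counts in both mice, so no read was given to that strand of the site. Its antisense column held 14538 counts in mouse 1 and 18059 in mouse 2, the same numbers as the sense column of Mir191. The unstranded column listed 0 counts for both Mir191 and Gm24083, while for Mir425, which has no opposite partner, it repeated the sense counts of 1437 and 1850.

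The 0 of Mir191 in the unstranded column was shared by most genes with an annotated microRNA gene on the opposite strand. There are 64 such genes, of which 34 had a sense count in mouse 1 and 32 in mouse 2, and 32 and 31 of these had 0 unstranded counts. Reads set aside as ambiguous in the unstranded column numbered 134651 in mouse 1 and 147893 in mouse 2. The sense counts of the 64 genes summed to 134661 in mouse 1 and 147897 in mouse 2. Mir191 alone equalled 10.8% of the ambiguous reads in mouse 1 and 12.2% in mouse 2, the third highest sense count among the 64. In that column the pair was thus listed through Mir425 alone.

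**Figure D3:**
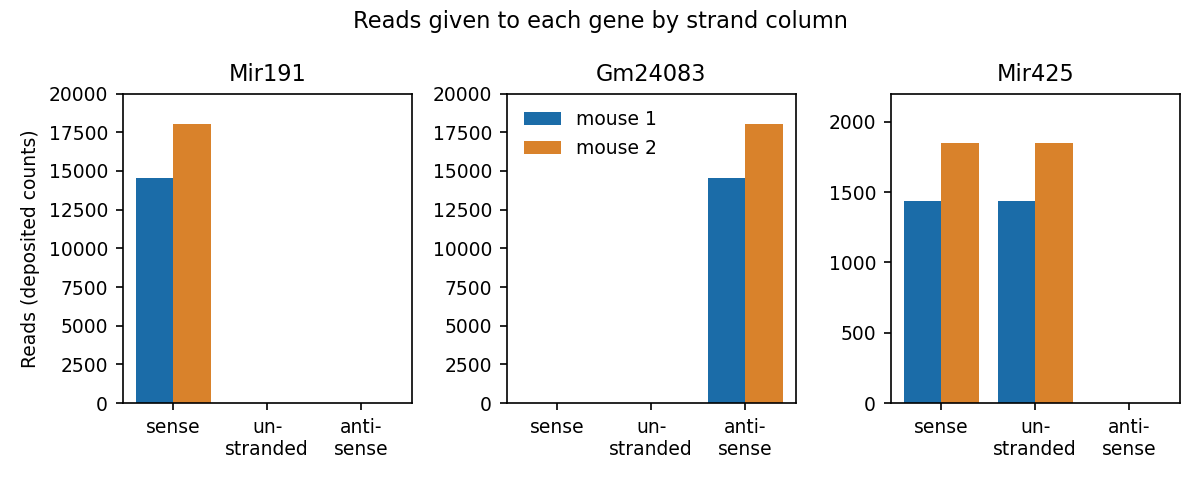
Deposited read counts of Mir191, Gm24083 and Mir425 in the sense, unstranded and antisense columns, for mouse 1 (blue) and mouse 2 (orange). The sense bars of Mir191 (14538 and 18059) return as the antisense bars of Gm24083, while both genes have 0 in the unstranded column. The vertical scale of the Mir425 panel is smaller.

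Mir191 outnumbered Mir425 by about the same factor in both mice. Its sense counts were 10.1 times those of Mir425 in mouse 1 (95% interval 9.58 to 10.7) and 9.76 times in mouse 2 (9.30 to 10.2). On the log2 scale the ratio of Mir191 over Mir425 was 3.34 in mouse 1 and 3.29 in mouse 2, with a mean of 3.31 ± 0.04 (SD, n = 2). Mir191 thus made up 91.0% of the pair's reads in mouse 1 (90.6 to 91.4) and 90.7% in mouse 2 (90.3 to 91.1). Per base of hairpin the mean log2 ratio was 3.51, although microRNA reads do not grow with hairpin length. The log2 ratio differed between the mice by 0.05 (mouse 1 minus mouse 2, 95% exact interval -0.05 to 0.16), and a two-sided Fisher's exact test of the counts gave p = 0.338. The difference between the mice in the pair's ratio was therefore within counting error at this depth, and the interval leaves room for a log2 difference of up to 0.16.

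Each gene by itself differed between the libraries by more than counting error. With library sizes scaled by TMM, the log2 ratio of mouse 1 over mouse 2 was -0.32 for Mir191 (95% interval -0.35 to -0.28, exact binomial test, adjusted p = 2.43e-85). For Mir425 it was -0.37 (-0.47 to -0.27, exact binomial test, adjusted p = 1.03e-12). In folds, Mir191 was 1.24-fold and Mir425 1.29-fold lower in mouse 1. The test compares 2 libraries of 1 group and speaks to counting error only, and 242 of the 324 genes tested passed it (74.7%). Of the same 324, 123 (38.0%) passed and were lower in mouse 1. A difference of at least 2-fold in addition was seen for 63 genes (19.4%), and neither Mir191 nor Mir425 was among them.

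The differences of both genes were smaller than most. The median absolute log2 ratio over the 324 genes was 0.53, and the median log2 ratio was 0.00. An absolute log2 ratio below that of Mir191 was found for 98 of the 324 genes (30.2%), and below that of Mir425 for 110 (34.0%). The common biological coefficient of variation, estimated by edgeR over the 324 genes, was 0.399. With 1 library per mouse, differences between animals and between library preparations cannot be told apart.

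**Figure D4:**
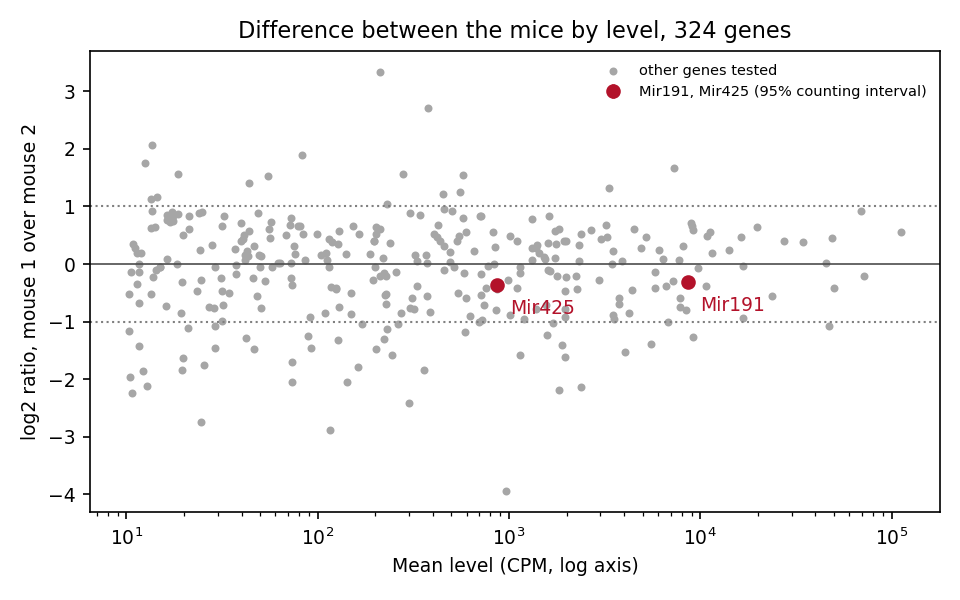
Log2 ratio of mouse 1 over mouse 2 against mean level in CPM (log axis) for the 324 genes tested. Mir191 (-0.32) and Mir425 (-0.37) are in red with 95% counting intervals, which are narrower than the symbol where not visible, and both lie inside the dotted lines that mark 2-fold.

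Some markers of cell types differed between the libraries as well. The 7 cortical and neuronal microRNA genes (Mir128-1, Mir128-2, Mir138-1, Mir138-2, Mir132, Mir137 and Mir153) were all at 10 CPM or more in both mice. Their summed level was 63219 CPM for mouse 1 and 103059 CPM for mouse 2, but most of that gap was Mir132, at 29894 CPM (mouse 1) and 64860 CPM (mouse 2). By gene, 4 of the 7 (Mir128-1, Mir132, Mir137 and Mir138-1) were lower in mouse 1, as Mir191 and Mir425 were, and 3 (Mir128-2, Mir138-2 and Mir153) were higher in mouse 1. Mir128-1 differed little, at 16283 CPM (mouse 1) and 17178 CPM (mouse 2). The 3 erythroid genes summed to 742 CPM for mouse 1 and 153 CPM for mouse 2, the opposite direction to the pair. Most of this was Mir451a, at 649 CPM (mouse 1) and 103 CPM (mouse 2). Mir144 stood at 63.2 CPM (mouse 1) and 24.7 CPM (mouse 2). Mir486, at 30.6 CPM (mouse 1) and 25.2 CPM (mouse 2), did not pass the exact binomial test (adjusted p = 0.334). The 4 leukocyte genes summed to 1585 CPM for mouse 1 and 1412 CPM for mouse 2, nearly all of it Mir150, at 1531 CPM (mouse 1) and 1264 CPM (mouse 2). Mir142, at 48.2 CPM (mouse 1) and 136.8 CPM (mouse 2), and Mir223, at 5.70 and 11.8 CPM, were lower in mouse 1 as the pair was, and Mir142b was at 0. Mir223 did not reach a mean of 10 CPM and so did not enter the exact binomial test. The part of these markers in the pair's difference was not tested. The liver gene Mir122 stood at 45.6 CPM (mouse 1) and 40.2 CPM (mouse 2) and did not pass the exact binomial test (adjusted p = 0.399). The 5 muscle genes summed to 38.3 CPM (mouse 1) and 25.8 CPM (mouse 2), with Mir1a-1, Mir133a-1 and Mir133a-2 at 0. In tissue, fewer cells of a type and less RNA per cell cannot be told apart.

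To set the pair's steady ratio beside others, neighbouring microRNA genes were paired where they were next to each other on a strand, had starts at most 10 kb apart and both reached 10 CPM on average. This gave 80 pairs of 120 genes, 37 of them on chromosome 12. In all, 58 of the 80 (72.5%) had a partner ratio that differed between the mice by Fisher's exact test with adjusted p under 0.05. Mir191 and Mir425 were among the 22 that did not, with adjusted p = 0.398 by the exact test. Their change of 0.05 was the 4th smallest of the 80, against a median absolute change of 0.60 on the log2 scale. For any 2 of the 324 genes, taken without regard to position, the median was 0.78. Pairs within a cluster share genes, so the 80 are not independent.

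Depth bears on this count, because a pair with few reads passes the exact test less easily. Mir192 with Mir194-2, at no more than 57 counts per gene and mouse, had a log2 difference of 0.72 between the mice and did not pass (adjusted p = 0.250, Fisher's exact test). In 18 pairs both partners had 1000 counts or more in both mice, a limit chosen after the values were seen. Of these 18, 15 passed, and the 3 that did not were Mir127 with Mir434, Mir770 with Mir673, and Mir191 with Mir425. Mir127 and Mir434, which lie in the imprinted Dlk1-Dio3 domain, had the smallest change of the 18. Mir127 had 81366 counts in mouse 1 and 107939 in mouse 2, and Mir434 had 3632 and 4906, a change of 0.03 on the log2 scale. Mir191 and Mir425 came second. Among the 43 pairs outside chromosome 12 they also came second, and among the 53 pairs with starts within 1 kb likewise.

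The imbalance of Mir191 over Mir425 was of a common size among neighbours. Their mean log2 ratio of 3.31 ranked 40th of 80, beside a median of 3.25. The 5 pairs with the nearest ratio were Mir351 with Mir542, Mir667 with Mir495, Mir329 with Mir494, Mir666 with Mir1193, and Mir409 with Mir412. Their changes between the mice (mouse 1 minus mouse 2) ran from -0.21 for Mir351 with Mir542 to 0.61 for Mir409 with Mir412. Of the 5, the 2 that passed Fisher's exact test were Mir667 with Mir495 (adjusted p = 1.41e-05) and Mir409 with Mir412 (adjusted p = 5.20e-08). The scarcer partner in these 5 pairs had 429 counts or fewer in either mouse, below the 1437 and 1850 of Mir425. The pair with the most reads was Mirlet7b with Mirlet7c-2, whose change was 0.09 (adjusted p = 0.0276, Fisher's exact test), and both of its genes were higher in mouse 1.

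**Figure D5:**
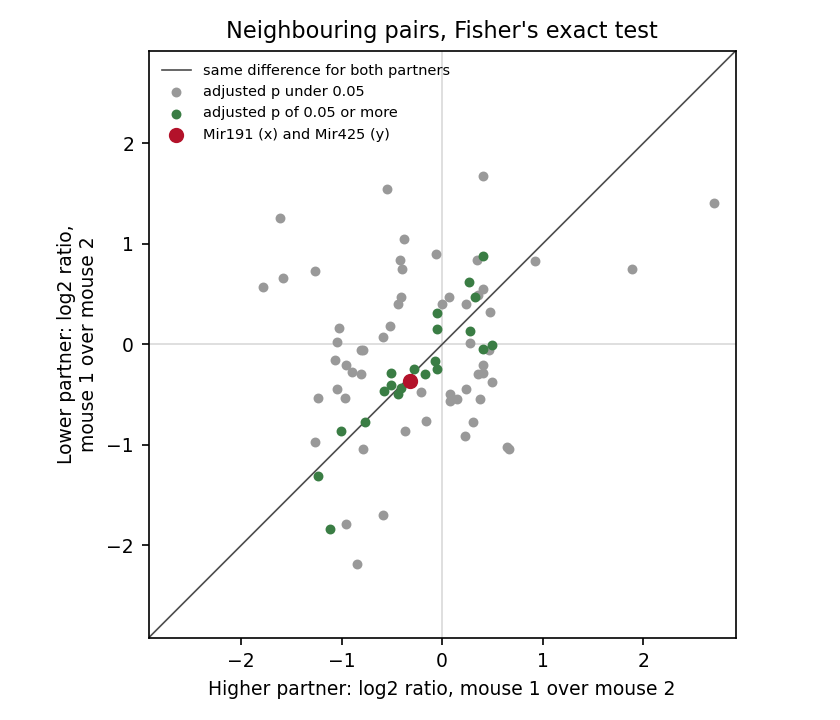
Log2 ratio of mouse 1 over mouse 2 for the partner with the lower mean CPM against that of the other in 80 pairs of neighbouring microRNA genes. Points on the diagonal have the same partner ratio in both mice. Mir191 and Mir425 (red, at -0.32 and -0.37) lie next to the diagonal. Pairs whose ratio did not pass Fisher's exact test are green, some of them with few counts and away from the diagonal, and the 58 that passed are grey.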

How the data were processed

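MicroRNA-seq counts from 2 mice of 1 group were used. Per the deposited notes, the authors' count tables rest on mm10 and GENCODE M21, and the values are raw read counts per gene. The aligner, counter and trimming are not given in the sources used here. Column meanings were read from the values. Opening lines that name no gene (unmapped, multiply mapped, in no gene, ambiguous) held 72.7% of reads in mouse 1 and 70.2% in mouse 2 and entered neither the library sizes nor any test. Sense counts totalled 1930234 in mouse 1 and 1863876 in mouse 2, and CPM was computed over these totals.

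All 2202 identifiers matched GENCODE M21 names. Between the mice, pairs of counts at 10 CPM or more on average (324 genes) were compared by two-sided exact binomial tests against TMM library sizes (edgeR 4.0.16), adjusted by Benjamini-Hochberg over the 324, with a threshold of 0.05. Intervals are 95% Clopper-Pearson. Partner ratios were compared by Fisher's exact test, adjusted over 80 pairs. The exact binomial test was run on counts simulated with counting error only and known library totals. This setting meets the test's own assumption, so it checks the code and not how the test handles spread between mice. Alternatives used total counts, DESeq2 1.42.0 size factors, other filters, the unstranded column and a GC correction. RNAfold was from ViennaRNA 2.7.2, run on RefSeq hairpins. The labels give the mice as separate biological replicates. Genes were named by rule: the pair, the 5 nearest in level to each, seed mates, overlapping and flanking microRNA genes, the 5 neighbouring pairs of nearest ratio, the most abundant pair and the markers. Mir127, Mir434, Mir770, Mir673, Mir192 and Mir194-2 were named after their values were seen. The pair and all lists were chosen with earlier results of these data known.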

Additional observations from a re-analysis of the deposited data

Results flagged for a closer look

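The antisense column, which enters no level or comparison of the mice, held 14538 counts for Gm24083 in mouse 1 and 18059 in mouse 2. Both are far above the 3 counts that a count of 0 was taken to allow. These equal the sense counts of Mir191, which Gm24083 overlaps on the opposite strand.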

How the results depend on the processing

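Leaving out a mouse put Mir191 between 7532 and 9689 CPM, Mir425 between 744 and 993 CPM and the log2 ratio of Mir191 over Mir425 between 3.29 and 3.34. In the unstranded column Mir191 was at 0 CPM, so neither its ratio to Mir425 nor its ratio between the mice could be computed there. Per base of hairpin the log2 ratio of Mir191 over Mir425 was 3.51. Both genes kept their direction and stayed past the exact binomial test under each alternative that gave a value, with log2 ratios of mouse 1 over mouse 2 from -0.36 to -0.28 for Mir191 and from -0.41 to -0.33 for Mir425. Genes past the exact test and 2-fold numbered 36 of 207 with a filter of 100 CPM, which tests fewer genes. With the GC trend removed, 29 of 67 were higher in mouse 1 and 38 in mouse 2, against 17 and 46 of 63 without. No paired analysis was possible because there is a single group. Reads of CAST alleles that map poorly to mm10 may be missing, and this was not tested.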
